A study of Mus musculus with 6 samples.

Results

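The cornified envelope is the layer of cross-linked protein that outer keratinocytes of the skin build under their membrane, and genes for it are also switched on by the most mature epithelial cells of the thymic medulla. The account below covers 10 such genes, listed by symbol: the envelope proteins Ivl, Flg, Sprr1a and Sprr1b, the enzyme and calcium-binding genes Tgm1 and Calm4, the barrier and adhesion genes Spink5, Dsg1a and Dsg3, and the regulator Grhl3. A gene was found through the transcript accession of its probes on the array, and the probe with the highest mean over all arrays stood for it. Of the 10 symbols, 9 had a probe, out of 20862 genes named on the array, and no probe was matched to Flg. All 9 were kept in the description, and 8 of them were well above background, by the scanner software's own test, on at least 1 array.

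The arrays came from a study of the transcription factor subunit RelA in the mouse thymus. Mice with a TNFalpha and RelA double KO (double knockout below) were set against mice with the TNFalpha-KO alone (TNF knockout below), so that every animal carried the TNFalpha-KO. All were C57BL/6 and 1.5 to 2 weeks old, and the labels name no promoter or cell type that restricts either deletion. Each genotype gave 3 sorted populations: CD45-EpCAM+ cells, labelled as epithelium of the thymus, and CD45+EpCAM- cells, labelled as stroma, each from 10 thymi per genotype, and CD4+CD25hi thymocytes from 5 mice per genotype. Each population of each genotype was 1 pool on 1 one-colour array, 6 arrays in all, so a genotype difference within a population has no replicate check and no test, and the number of arrays limits the precision.

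In stratified epithelium, involucrin (Ivl) is laid down early as a scaffold, small proline-rich proteins (Sprr) bridge it, and filaggrin (Flg) bundles keratin filaments. Transglutaminase 1 (Tgm1) forms the bonds that join the proteins once calcium rises. Desmosomal cadherins (Dsg) hold the cells together until kallikreins cut them, and Spink5 encodes an inhibitor of those proteases. Grainyhead-like 3 (Grhl3) is a transcription factor needed for the skin barrier. In the thymus, medullary epithelial cells that have passed the Aire-expressing stage take on keratinocyte features, and in humans they form Hassall's corpuscles.

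The promoters of the envelope genes are shown because 4 members share the same pair of short motifs close to the start site. The sequences are the 160 bases before the annotated start site, 5′ to 3′ on the gene's strand, from RefSeq on GRCm38.p6. Capitals mark each match to the AP-1 motif TGANTCA, the TATA motif TATAAA or the kB consensus, the motif bound by NF-kB proteins, searched on both strands; none of the marked matches overlaps another. Sprr1b lies on the minus strand at chr3:92438780-92438939, Sprr1a on the minus strand at chr3:92485882-92486041, Ivl on the minus strand at chr3:92573736-92573895, Flg on the plus strand at chr3:93273386-93273545 and Calm4 on the plus strand at chr13:3837597-3837756.
Sprr1b: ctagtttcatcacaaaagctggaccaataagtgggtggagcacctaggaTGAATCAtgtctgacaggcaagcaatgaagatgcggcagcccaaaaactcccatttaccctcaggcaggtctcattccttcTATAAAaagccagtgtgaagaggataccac
Sprr1a: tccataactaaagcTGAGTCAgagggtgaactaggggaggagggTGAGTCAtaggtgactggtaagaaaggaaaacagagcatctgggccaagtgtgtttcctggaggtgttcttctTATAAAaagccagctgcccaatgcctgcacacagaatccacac
Ivl: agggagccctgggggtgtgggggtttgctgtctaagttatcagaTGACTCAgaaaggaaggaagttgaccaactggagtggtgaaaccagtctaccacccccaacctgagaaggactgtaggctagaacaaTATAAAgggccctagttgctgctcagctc
Flg: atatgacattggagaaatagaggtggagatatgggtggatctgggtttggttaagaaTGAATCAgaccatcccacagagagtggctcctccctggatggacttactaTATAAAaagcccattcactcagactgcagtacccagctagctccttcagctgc
Calm4: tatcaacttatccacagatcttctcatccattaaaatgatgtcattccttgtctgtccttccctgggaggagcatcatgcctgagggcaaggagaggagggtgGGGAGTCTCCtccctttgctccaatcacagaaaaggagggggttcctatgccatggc

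The table of promoters held 7 of the 10 genes, and each promoter was searched from 250 bases before to 50 bases after the start. Counted back from the start site, AP-1 matches began at -146 and -116 in Sprr1a, -116 in Ivl, -111 in Sprr1b and -103 in Flg. Those 4 genes of 7, or 4 of their 8 promoters, compare with 7.81% of all 32851 promoters. The 4 lie in the same gene cluster, and Sprr1a and Sprr1b are of the same family, so they are not independent. The same 4 held a TATA match, which 13.6% of all promoters held; this motif was added after the sequences had been seen. The kB consensus matched in Calm4 alone among the 7, against 8.46% of all promoters. The Grainyhead core ACCNGTT, found in 8.13% of all promoters, was in none of the 7. In a wider list of envelope precursors, 11 of 40 genes held an AP-1 match, 15 of 40 a TATA match and 0 of 40 a kB match. A match describes letters only, and no binding was measured.

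Levels below are log2 of the processed signal minus the array's 75th percentile, so 0 is the 75th percentile of that array. Among the 6 arrays, that of double-knockout CD45-EpCAM+ cells was the dimmest. Its 75th percentile was a signal of 108, against 370 on the TNF-knockout array, and 47.2% of its probes were well above background, against 66.2% on the TNF-knockout array. The lowest level counted as well above background was therefore -2.82 on the double-knockout array and -4.78 on the TNF-knockout array. On the other 4 arrays the 75th percentile lay between 272 and 675. Rela, the deleted gene, had a level of 1.81 in double-knockout and 3.84 in TNF-knockout CD45-EpCAM+ cells, and differences of -2.02, -0.74 and -1.86 in CD45-EpCAM+, CD45+EpCAM- and CD4+CD25hi cells. The Tnf probe, whose place relative to the deleted part is not known here, read -2.71 (not well above background) in double-knockout and -1.49 in TNF-knockout CD45-EpCAM+ cells. It read between -0.78 and -0.57 on the other 4 arrays, well above background, so it does not check the label. The sorted epithelium carried its markers: Foxn1, the master factor of thymic epithelium, had levels of 3.39 and 3.23 in CD45-EpCAM+ cells (double knockout, then TNF knockout) and was not well above background on the other 4 arrays.

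The 2 small proline-rich genes were highest in the epithelial fraction and lower there in the double knockout. Sprr1a had a level of 1.69 in double-knockout CD45-EpCAM+ cells and 2.73 in TNF-knockout CD45-EpCAM+ cells. In CD45+EpCAM- cells it was -4.83 in the double knockout and -5.12 in the TNF knockout. In CD4+CD25hi thymocytes it was -4.39 in the double knockout and, not well above background, -5.82 in the TNF knockout. Both epithelial arrays therefore lay far above the other 4. Between the epithelial arrays the double knockout was 2.05-fold lower, a log2 difference of -1.03 with a scanner error of 0.20. Sprr1b had a level of -1.73 in double-knockout and 0.05 in TNF-knockout CD45-EpCAM+ cells, and was not well above background on the other 4 arrays. It was 3.44-fold lower in the double knockout (-1.78, scanner error 0.26). The scanner error covers the spot alone, not the spread between pools of mice.

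Involucrin was close to the limit of detection. Ivl had a level of -3.55, not well above background, in double-knockout and -3.95, well above background, in TNF-knockout CD45-EpCAM+ cells. No fold is given, because the lowest level well above background on the double-knockout array, -2.82, lies above both values. A second Ivl probe read -4.47, not well above background, in double-knockout and -3.71, well above background, in TNF-knockout CD45-EpCAM+ cells, so the 2 probes ordered the genotypes differently. On the other 4 arrays neither probe was well above background.

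The cross-linking enzyme and the calcium-binding gene were also well above background in CD45+EpCAM- cells, the latter in 1 of 2 pools. Tgm1 had a level of -3.39, not well above background, in double-knockout and -2.36 in TNF-knockout CD45-EpCAM+ cells, with at least 1.37-fold less in the double knockout. In CD45+EpCAM- cells Tgm1 was -3.60 in the double knockout and -3.76 in the TNF knockout, and in CD4+CD25hi thymocytes it was not well above background. The TNF-knockout epithelial array thus stood above both CD45+EpCAM- arrays, while the double-knockout epithelial array gives only an upper limit for this enzyme gene. Calm4, an epidermal calmodulin-like gene, had a level of -0.77 in double-knockout and 0.08 in TNF-knockout CD45-EpCAM+ cells, 1.80-fold lower in the double knockout (-0.85, scanner error 0.23). In CD45+EpCAM- cells it was -7.35, not well above background, in the double knockout and -2.29 in the TNF knockout. Calm4 was thus measured in 1 of the 2 CD45+EpCAM- pools, and in neither CD4+CD25hi pool.

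The protease inhibitor and the desmosomal cadherin Dsg1a were measured only in the epithelial fraction. Spink5 had a level of -1.77 in double-knockout and 0.29 in TNF-knockout CD45-EpCAM+ cells, 4.15-fold lower in the double knockout (-2.05, scanner error 0.25). Dsg1a had a level of -1.20 in double-knockout and 0.68 in TNF-knockout CD45-EpCAM+ cells, 3.68-fold lower (-1.88, scanner error 0.23). Neither gene was well above background on the other 4 arrays, and Dsg1a has close copies in Dsg1b and Dsg1c whose share in its probe was not tested. Dsg3, the cadherin of basal keratinocytes, was not well above background on any of the 6 arrays with either of its 2 probes.

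Grhl3, the regulator among the members, had a level of -1.15 in double-knockout and 0.34 in TNF-knockout CD45-EpCAM+ cells. The double knockout was 2.80-fold lower (-1.49, scanner error 0.25). Grhl3 was not well above background on the other 4 arrays, where its level lay between -6.59 and -6.09.

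**Figure D1:**
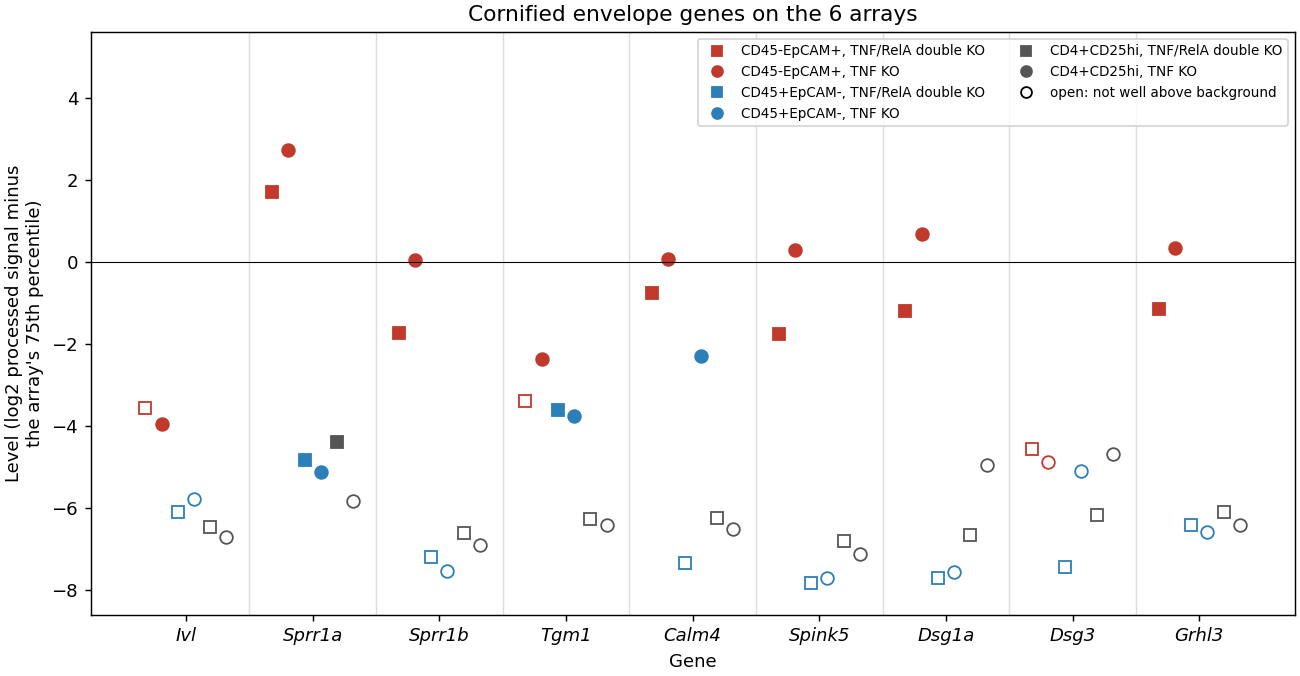
Level of the 9 matched genes (log2 processed signal minus the array's 75th percentile, vertical axis) on the 6 arrays, 1 point per array, grouped by gene and ordered by role. Squares are double-knockout and circles TNF-knockout arrays, and open points are not well above background; the red squares of the 6 genes measured on both CD45-EpCAM+ arrays all sit below the red circles.

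Together, 6 members were well above background on both CD45-EpCAM+ arrays, and all 6 had a lower level in the double knockout. Of these, 5 were at least 2-fold lower (all but Calm4), with a median difference of -1.63. Among all 11840 genes well above background on both arrays, 6.34% were at least 2-fold lower and the median difference was 0.09. Of the 2602 such genes that limma also called higher in CD45-EpCAM+ cells than in both other populations, 18.3% passed 2-fold in that direction. With bounds included, 7 members had a difference, 5 of them at least 2-fold lower and 0 higher, against 9.3% lower and 5.1% higher of 13205 genes. The members above background only on the TNF-knockout array, Tgm1 and Ivl, could only come out lower under that filter, and the double-knockout array was the dim one. In such pools, fewer cells of a type and less RNA per cell cannot be told apart.

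The listed medullary epithelial markers moved with the members, and the listed cortical markers moved the other way. Of 10 medullary markers, 9 were on the array and well above background in both epithelial pools, and all 9 were lower in the double knockout, 8 by 2-fold or more; their median was -1.50, with a summed linear level of 16.4 in the double knockout against 48.5 in the TNF knockout. They included Aire (-1.90), the regulator of tissue-restricted genes, and Fezf2 (-1.88), a second such regulator. Fezf2, Cldn3 and Tnfrsf11b were not well above background in the other populations. Ctss and Cd80 were not restricted to epithelium. In CD4+CD25hi thymocytes Ctss read 4.31 and 4.07 and Cd80 -0.69 and -0.98 (double knockout, then TNF knockout). Krt5, a keratin of basal and medullary epithelial cells outside this list, differed by -0.01 between the epithelial pools. All 8 cortical markers were higher in the double knockout, with a median of 0.64 and a summed level of 1770 in the double knockout against 1074 in the TNF knockout. The 6 pan-epithelial markers had a median of 0.11 and a summed level of 889 in the double knockout against 613 in the TNF knockout, most of it from Krt18. Without Krt18 the sum was 108 in the double knockout against 111 in the TNF knockout, and Cldn7 differed by -1.90 and Epcam by -0.63. The summed level of the members themselves was 5.53 in the double knockout and 13.1 in the TNF knockout.

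Markers of other cell types also differed between these 2 pools. Granulocyte markers had a median of -1.82, with 5 of 7 lower by 2-fold or more in the double knockout and a summed level of 9.24 in the double knockout against 32.8 in the TNF knockout. T cell markers had a median of 0.85 and a summed level of 127.65 in the double knockout against 68.6 in the TNF knockout. Macrophage markers had a median of 0.83 (summed level 8.86 in the double knockout, 6.01 in the TNF knockout), fibroblast and endothelial markers 0.58 (22.2 in the double knockout, 13.2 in the TNF knockout) and parathyroid markers 2.25 (21.9 in the double knockout, 3.62 in the TNF knockout). Of 6 dendritic cell markers, 1 was well above background on both arrays. The part of the pools' makeup and of the dim array in the members' difference was not tested.

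The populations were compared with limma over all 6 arrays with genotype as a covariate, in the 15136 genes that passed the background test on 2 or more arrays. The members Ivl and Dsg3 did not reach that filter. Dsg1a, Grhl3, Spink5 and Sprr1b passed it through the 2 CD45-EpCAM+ arrays alone, so they could come out only higher there, and the counts of calls are no support for a restriction to epithelium. All 7 members tested were called higher in the epithelial fraction than in the thymocytes, where 24.4% of genes were called that way. The 3 members that also pass on at least 3 arrays, Calm4, Sprr1a and Tgm1, were all called. Under that filter 2837 of all 13736 genes were called higher. Calm4 and Tgm1 were not well above background on the thymocyte arrays. Against thymocytes they too could come out only higher, so their calls are no support either. Sprr1a, for which 1 of the 2 thymocyte arrays was not well above background, was 7.31 higher in the fit (SE 0.66, limma adjusted p = 0.00444), Spink5 6.23 (SE 0.67, limma adjusted p = 0.00614) and Grhl3 5.85 (SE 0.54, limma adjusted p = 0.00467). Since the thymocyte arrays were not well above background for Spink5 and Grhl3, their folds are given as at least 15.3-fold and at least 19.3-fold. By the same bound Dsg1a was at least 21.4-fold, Calm4 at least 20.2-fold and Sprr1b at least 14.3-fold higher in CD45-EpCAM+ cells. No bound is given for Tgm1 (3.46 in the fit, SE 0.38), since 1 of its CD45-EpCAM+ arrays was not well above background either. These sizes depend on the background correction: with normexp, which adds an offset of 50 to the signal, the differences were 4.77 for Sprr1a, 2.47 for Spink5, 2.37 for Dsg1a, 2.02 for Sprr1b, 2.01 for Grhl3, 1.88 for Calm4 and 0.38 for Tgm1, the last not called (limma adjusted p = 0.109). The limma adjusted p was 0.00470 for Dsg1a, 0.00615 for Tgm1 and 0.00622 for Sprr1b. Calm4 had the largest adjusted p (SE 1.48, limma adjusted p = 0.0362) and was not called when any one of the 2 CD45-EpCAM+ or 2 CD4+CD25hi arrays was left out, with adjusted p between 0.0694 and 0.159 by limma. Each population lay on a slide of its own, so slide and population cannot be told apart, and the 2 arrays of a population are the 2 genotypes, not replicates.

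Against CD45+EpCAM- cells, 5 of the 7 members were called higher in CD45-EpCAM+ cells, where 23.2% of genes were. Of the 3 that pass on at least 3 arrays, 1 was called, Sprr1a. Under that filter 2664 of all 13736 genes were called higher. Dsg1a was at least 37.2-fold higher, Grhl3 at least 33.6-fold, Spink5 at least 26.6-fold and Sprr1b at least 24.9-fold, while Sprr1a, measured in both fractions, was 146-fold higher (7.19, SE 0.66, limma adjusted p = 0.00484). With normexp the log2 differences were smaller: 4.81 for Sprr1a, 2.52 for Dsg1a, 2.38 for Spink5, 2.03 for Sprr1b and 1.76 for Grhl3, all 5 still called. Dsg1a, Spink5, Sprr1b and Grhl3 passed the filter through the CD45-EpCAM+ arrays alone, so their calls are no support here either. The limma adjusted p was 0.00317 for Dsg1a, 0.00461 for Grhl3, 0.00518 for Spink5 and 0.00546 for Sprr1b. The call was not reached for Calm4 (4.48, SE 1.48, limma adjusted p = 0.0722), with its 1 bright CD45+EpCAM- pool, or for Tgm1 (0.81, SE 0.38, limma adjusted p = 0.147). Without the TNF-knockout CD45+EpCAM- array Calm4 was called (limma adjusted p = 0.0189), and without the double-knockout CD45-EpCAM+ array Tgm1 was called (limma adjusted p = 0.0139). The sign for Tgm1 turned with quantile normalization and with normexp background correction.

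Outside the epithelium, few members could be compared between genotypes. In CD45+EpCAM- cells 3 members had a difference. Calm4 was at least 9.53-fold lower in the double knockout, the 1 member past 2-fold there, where 2.08% of 14582 genes were lower that far and 1.82% higher. This rests on a signal of 4.15 on the double-knockout array and 130 on the TNF-knockout array, and with normexp background correction it was -0.92, short of 2-fold. Sprr1a and Tgm1 differed by 0.30 and 0.16 in that population. In CD4+CD25hi thymocytes Sprr1a alone was measured, at least 0.45 higher in the double knockout, and no member passed 2-fold, where 1.28% of 12930 genes were lower and 1.68% higher that far. Granulocyte markers ran the other way in CD45+EpCAM- cells, with a summed level of 23.7 in the double knockout against 6.70 in the TNF knockout.

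A genotype effect common to the 3 populations could be fitted for 3 members, since the fit took the 13736 genes that passed the background test on 3 or more arrays. It was -1.88 for Calm4 (SE 1.19, limma adjusted p = 0.696), 0.23 for Sprr1a (limma adjusted p = 0.896) and -0.24 for Tgm1 (limma adjusted p = 0.801). None was called, as for 0% of all genes, while 873 genes had an unadjusted limma p under 0.05. In simulated data with an assumed spread, this fit recovered 22.4% of log2 changes of 1 and 95.5% of log2 changes of 2. The lack of calls is thus no sign that 2-fold common effects are absent.

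Other envelope precursors, most of them neighbours of the members, were mostly lower in the double-knockout epithelial pool. Of 46 listed, 42 were on the array and 12 were well above background on both epithelial arrays, of which 9 lay below 0, 5 of them by 2-fold or more, and 0 were higher that far; the median was -0.66. The late cornified envelope genes Lce3b (-1.96 in the double knockout, 0.31 in the TNF knockout, 4.84-fold lower) and Lce3d (-1.96 in the double knockout, -0.49 in the TNF knockout, 2.79-fold lower) were among them. So were Crct1, a cysteine-rich gene of the same cluster (-0.46 in the double knockout, 1.31 in the TNF knockout, 3.41-fold lower), and trichohyalin, Tchh (-1.37 in the double knockout, 0.11 in the TNF knockout, 2.78-fold lower). A further 26 precursors were well above background only on the TNF-knockout array, a state in which a gene could only come out lower. Among all 11840 genes well above background on both arrays, 4889 lay below 0 and 6.34% were at least 2-fold lower.

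Not every precursor was lower. Loricrin (Lor), the main envelope protein of mouse epidermis, had a level of 1.26 in double-knockout and 1.12 in TNF-knockout CD45-EpCAM+ cells, a difference of 0.13, and was not well above background on the other 4 arrays; it was picked out after its values had been seen. Envoplakin (Evpl), which links the envelope to keratin, was 0.53 higher in the double knockout (1.88 in the double knockout, 1.35 in the TNF knockout). The brightest probe of the list was that of Sprr2a2, with levels of 7.20 in double-knockout and 7.11 in TNF-knockout CD45-EpCAM+ cells. It read 8.30 and 8.26 in CD4+CD25hi thymocytes, in the same order, so it was not restricted to epithelium, and cross-binding between close copies of the Sprr2 family was not tested.

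**Figure D2:**
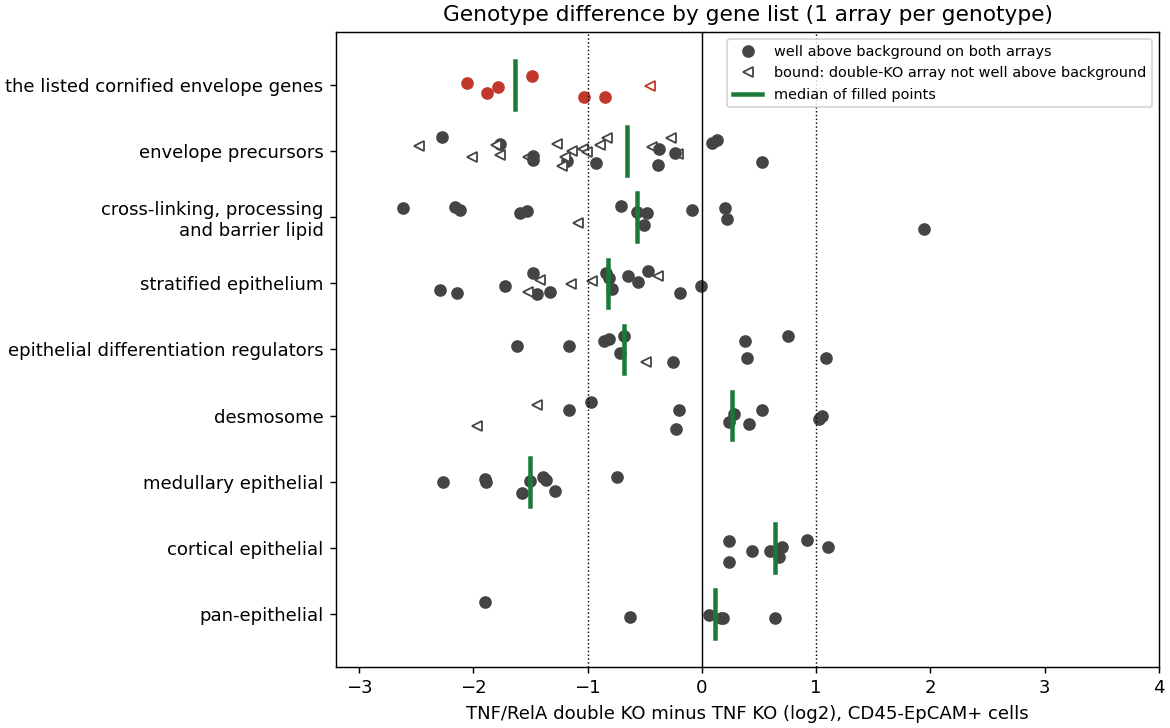
Double knockout minus TNF knockout in CD45-EpCAM+ cells (log2, horizontal axis) for each gene of the members' list, 5 lists around the envelope and 3 epithelial marker lists, 1 point per gene with 1 array per genotype. Green bars are medians of the filled points: -1.63 for the members, -0.66 for envelope precursors, 0.26 for desmosome genes, -1.50 for medullary and 0.64 for cortical markers.

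The enzymes and inhibitors around the envelope differed in both directions. Of 20 listed, 13 were well above background on both epithelial arrays, of which 5 were lower by 2-fold or more and 1 higher, and the median was -0.56. Among all genes measured on both, 6.34% were lower that far and 5.27% higher. Klk5, the kallikrein that Spink5's product inhibits, had a level of -1.83 in double-knockout and 0.78 in TNF-knockout CD45-EpCAM+ cells, 6.12-fold lower. Asprv1, the protease that trims filaggrin, was 4.34-fold lower (0.57 in the double knockout, 2.68 in the TNF knockout), and Tgm5, a second epidermal transglutaminase, 4.46-fold lower (-2.11 in the double knockout, 0.05 in the TNF knockout). Tgm3, the transglutaminase of the outer epidermis and hair, was 3.85-fold higher in the double knockout (1.29 in the double knockout, -0.65 in the TNF knockout). The Tgm3 probe also read 0.81 and 0.54 in CD4+CD25hi thymocytes and -0.30 and 0.02 in CD45+EpCAM- cells (double knockout, then TNF knockout). It was thus not restricted to epithelium. Cst6, a cysteine protease inhibitor, and St14, which encodes matriptase, differed by -0.48 and -0.09.

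Among 13 desmosome genes, 10 were measured on both epithelial arrays, with 1 at least 2-fold lower, 2 higher and a median of 0.26. The shares among all genes measured on both were 6.34% lower and 5.27% higher. Over all 12 desmosome genes with a value or bound the median was 0.02, and its sign turned with centring on the median of detected probes (-0.03) and with normexp (-0.22). The plakophilin Pkp2 was 2.24-fold lower in the double knockout (-2.14 in the double knockout, -0.97 in the TNF knockout), while Pkp3 was 2.03-fold higher (3.65 in the double knockout, 2.62 in the TNF knockout) and the cadherin Dsc3 2.08-fold higher (0.50 in the double knockout, -0.56 in the TNF knockout). The Pkp3 probe also read 3.51 and 3.21 in CD4+CD25hi thymocytes (double knockout, then TNF knockout), so it was not restricted to epithelium. Desmoplakin (Dsp), which ties desmosomes to keratin, and Perp, a desmosomal protein of stratified epithelia, differed by 0.41 and 0.53. Dsg1c, the close copy of Dsg1a, differed by -0.97. Cdsn, which encodes the corneodesmosin of cornified layers, was at least 3.90-fold lower and Dsg1b at least 2.73-fold lower, both above background only on the TNF-knockout array; these 2 were picked out after their values had been seen.

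Regulators of epithelial differentiation were split. Of 13 listed, 11 were measured on both arrays, with 2 at least 2-fold lower, 1 higher and a median of -0.68. The 2 of 11 (18.2%) lie near the 18.3% of genes called higher in CD45-EpCAM+ cells than in both other populations. That count therefore does not set the list apart. The Ets factors Elf3 (-2.68 in the double knockout, -1.07 in the TNF knockout) and Ehf (-0.40 in the double knockout, 0.77 in the TNF knockout) were 3.07-fold and 2.24-fold lower. Ovol2, a repressor that maintains epithelial identity, was 2.12-fold higher (1.96 in the double knockout, 0.88 in the TNF knockout). Its probe also read 2.79 and 2.34 in CD4+CD25hi thymocytes and 1.77 and 1.81 in CD45+EpCAM- cells (double knockout, then TNF knockout). Trp63, the p63 gene of stratified epithelial progenitors, differed by 0.40, and its probe read 4.08 and 4.05 in CD4+CD25hi thymocytes, in the same order. Neither probe was thus restricted to epithelium, and the part of other cells in their epithelial levels was not tested.

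Keratins and other genes of stratified epithelium leaned the same way as the members. Of 22 listed, 14 were measured on both arrays, all 14 below 0 and 6 of them by 2-fold or more, and the median was -0.83. Of all 11840 genes so measured, 4889 lay below 0 and 6.34% were at least 2-fold lower. Of the 2602 called higher in CD45-EpCAM+ cells than in both other populations, 18.3% were. Krt16, a keratin of activated epidermis, was 4.90-fold lower (0.43 in the double knockout, 2.72 in the TNF knockout), Krt78 4.42-fold lower (-1.34 in the double knockout, 0.80 in the TNF knockout), Dmkn, a secreted protein of differentiated epidermis, 3.30-fold lower (1.09 in the double knockout, 2.81 in the TNF knockout) and Krt15 2.79-fold lower (-2.08 in the double knockout, -0.60 in the TNF knockout). The keratin Krt5, of basal and medullary epithelial cells, differed by -0.01, with levels of 6.43 in the double knockout and 6.44 in the TNF knockout. Krt17 differed by -0.56.

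Ivl, Sprr1a, Sprr1b and Flg lie in the epidermal differentiation complex on chromosome 3, a cluster of envelope genes. Between Lor and Tchhl1 the annotation lists 71 genes; 48 had a probe and 45 of those are not members. Of those 45, 41 were well above background on the TNF-knockout CD45-EpCAM+ array and 10 on the double-knockout array. Over all 20862 genes, 15757 were on the TNF-knockout array and 11889 on the double-knockout array, whose lowest level well above background was higher. Of the 10 measured on both, 4 were at least 2-fold lower in the double knockout, Lce3b, Lce3d, Crct1 and Tchh, and 0 higher. Among all genes measured on both, 6.34% were lower that far and 5.27% higher. The other 6 of the 10 were Sprr2g (-0.93), Sprr2d (-0.38), Lce1a2 (-0.24), Sprr2a2 (0.09), Lor (0.13) and Tdpoz8 (0.28). They are named here to complete the 10 after their values had been seen. The remaining 31 were well above background only on the TNF-knockout array, so no count of directions is drawn from them.

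**Figure D3:**
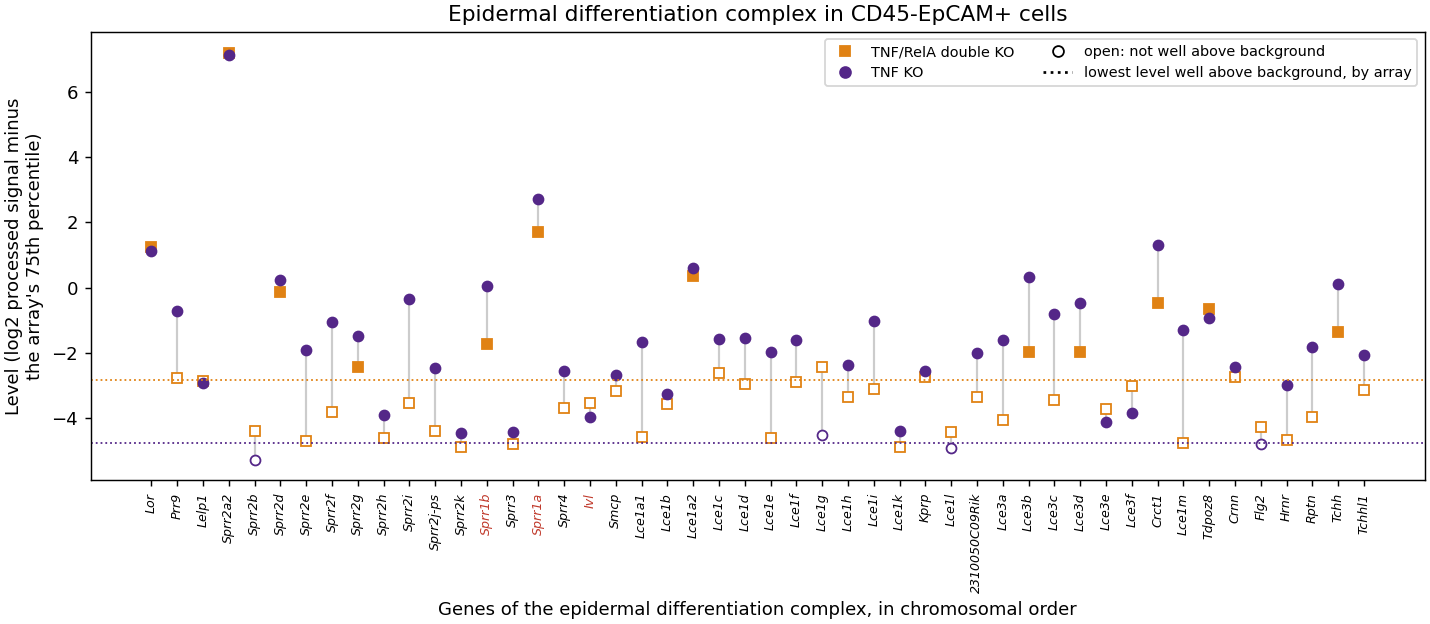
Level in CD45-EpCAM+ cells (log2 processed signal minus the array's 75th percentile, vertical axis) of the 48 genes of the epidermal differentiation complex on the array, in chromosomal order, with orange squares for the double knockout and purple circles for the TNF knockout. Open points are not well above background, dotted lines are each array's lowest level well above background (-2.82 and -4.78), and member symbols are red. A point above its line can still be open. Lor and Sprr2a2 sit at nearly equal levels while Lce3b and Crct1 are far apart.

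Genes with profiles most like the members' were sought among 11834 genes that are not members, are well above background on both CD45-EpCAM+ arrays and could be compared over 6 arrays. The measure was Pearson's r with the mean level of 8 members. The 5 highest were Cdx1 (r = 0.9994), Ubd (r = 0.9993), Fhad1 (r = 0.9993), Zc3h7b (r = 0.9991) and Cdh15 (r = 0.9982), and 164 genes reached 0.99. The 6 points share their arrays and fall into an epithelial pair and 4 low ones, and r is a description. Cdx1, an intestinal homeobox gene, was 3.53-fold lower in the double-knockout epithelial pool (3.01 in the double knockout, 4.83 in the TNF knockout), Ubd, a ubiquitin-like modifier, 4.60-fold lower (3.95 in the double knockout, 6.16 in the TNF knockout) and Fhad1 3.15-fold lower (-1.37 in the double knockout, 0.28 in the TNF knockout). Zc3h7b and Cdh15, which were well above background on all 4 arrays of the other populations, differed by -0.30 and -0.50 in CD45-EpCAM+ cells.

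The members' differences in CD45-EpCAM+ cells changed little with the scaling. Over the 5 ways drawn, Spink5 lay between -2.38 and -1.76, Dsg1a between -2.11 and -1.62, Sprr1b between -2.09 and -1.43 and Grhl3 between -1.69 and -1.49. Among the 5, the authors' deposited table is the main scaling with a fixed offset per array, so its likeness to the main values was fixed in advance. Sprr1a lay between -1.12 and -1.03, near the 2-fold line. Calm4 lay between -1.02 and -0.85 and crossed the 2-fold line with normexp background correction.

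**Figure D4:**
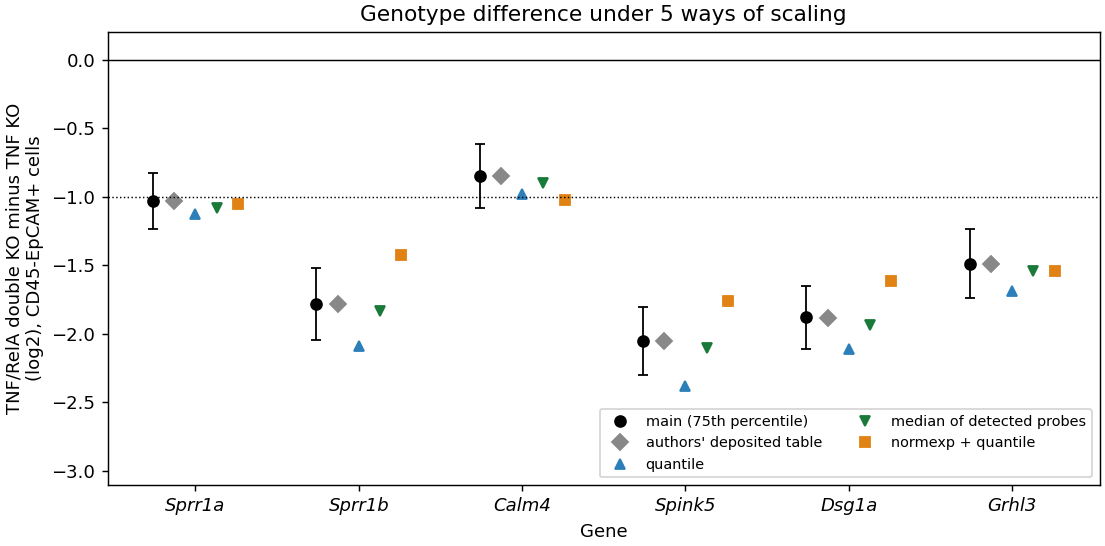
Double knockout minus TNF knockout in CD45-EpCAM+ cells (log2, vertical axis) for the 6 members measured on both arrays, under 5 ways of scaling, with the scanner error as bars on the main value. All points lie below 0, and the dotted line marks 2-fold. The authors' deposited table is the main scaling with a fixed offset per array, so it is no separate check.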

How the data were processed

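RNA of 6 pools was labelled with Cy3 and hybridised to Agilent one-colour arrays, per the labels. Spot intensity values are in the deposited scanner files, which the authors made with Feature Extraction 10.5.1.1 for design 026655 (build mm9), per the file headers, while the submitters' processing notes name version 9.5. The authors' deposited value table is on a log2 scale, which was found by comparison: it equals log2 of the processed signal less the 75th percentile of its array, with 100% of probes within 0.05 after a fixed offset per array. Its column medians were -2.72 and -2.84 for CD45-EpCAM+, -3.58 and -3.63 for CD45+EpCAM- and -3.61 and -3.71 for CD4+CD25hi cells, double knockout before TNF knockout. The direction of the comparison comes from the labels.

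Control and outlier spots were left out, spots of a probe were averaged, and 39419 of 39429 probes were used. Accessions gave 1 symbol for 27466 probes (69.7%), several for 35 and none for 11918, through a RefSeq gene table of GRCm38.p6. Where a gene has several probes the brightest was used. Between probes of the same gene well above background on both CD45-EpCAM+ arrays, the genotype difference had an SD of 0.32 on the log2 scale. That is above the scanner error of each member's difference in those cells. Where 1 array of a pair was not well above background, the dim side took its own value or the array's lowest level well above background, whichever was higher, and the result is given as "at least". Bounds between populations use the same floor. Differences within a population were counted at 2-fold, with no test. Populations were compared with limma 3.58.1 in R 4.3.3 at a Benjamini-Hochberg adjusted p of 0.05 and 2-fold, with 2 degrees of freedom for the residuals and 1.64 for the prior. The common genotype effect was fitted with population as a block, with 1.74 for the prior. With 1 pool per group, these p-values say nothing of how replicate pools would vary. The limma steps were tested on simulated data.

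The members, lists and tests were chosen with earlier results of these data known. Named genes are the members, the 4 largest differences of each list among those measured on both arrays and its 2 brightest, cell type markers, Rela, Relb and Tnf, and the 5 most alike profiles. A gene that this rule names is not reported here. Alternatives were quantile normalization, centring on the median of detected probes, normexp background correction with an offset of 50, the mean over probes, the deposited table, other filters on dim probes, and leaving out each array. The scanner files hold no mean signal, so normexp used the median signal. Relb differed by -1.15, -0.96 and -0.25 in CD45-EpCAM+, CD45+EpCAM- and CD4+CD25hi cells, and Tnf by at least -1.22, -0.07 and -0.15. Protein sequences were not used here.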

Additional observations from a re-analysis of the deposited data

Results flagged for a closer look

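Sprr1a was set apart because its genotype differences in the stroma (CD45+EpCAM-, 0.30) and the thymocytes (CD4+CD25hi, at least 0.45) ran opposite to that in CD45-EpCAM+ cells (-1.03). With 1 array per group the difference between populations was not tested. With normexp background correction the first 2 values were 0.07 and 0.08.

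Tgm1 was set apart for the same reason, with 0.16 in CD45+EpCAM- cells against at least -0.45 in CD45-EpCAM+ cells, and that difference was not tested either.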

How the results depend on the processing

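In CD45-EpCAM+ cells the count of members lower by 2-fold or more was 5 under each setting but normexp background correction, which gave 6. In CD45+EpCAM- cells the count of 1 became 0 with normexp and when both arrays had to be well above background. That filter left 5 envelope precursors lower by 2-fold or more in place of 16, and 1 desmosome gene in place of 3, since it takes out every bound. With at least 3 bright arrays required, 3 members remained in the population fit. Of these, 3 were called against CD4+CD25hi and 1 against CD45+EpCAM- cells, in place of 7 and 5. Among all 13736 genes then fitted, 2837 and 2664 were called higher. Calm4 and Tgm1 were not well above background on the CD4+CD25hi arrays, so their direction there was fixed. Leaving out 1 array gave 5 to 7 members called against CD4+CD25hi cells, 5 to 6 against CD45+EpCAM- cells and 0 to 0 for the common genotype effect; a lone array was then assumed to vary like the others. Signs turned for Tgm1 between CD45-EpCAM+ and CD45+EpCAM- cells (-0.18 with quantile normalization, -0.087 with normexp), for Sprr1a in the common effect (-0.30 with normexp; -0.37 to 0.86 with 1 array left out, lowest without either CD4+CD25hi array) and for Tgm1 there (-0.44 to 0.15, highest without either CD45-EpCAM+ array). Tgm1 was not called against CD4+CD25hi cells with normexp (limma adjusted p = 0.109) or, at a limma adjusted p just above 0.05, without the TNF-knockout array of those cells. Calm4 was called against CD45+EpCAM- cells with normexp (limma adjusted p = 0.0210). Where no cause is named, the cause was not tested. The common genotype effect already pairs the arrays by population, and without that block it also called 0 members. Beyond that, no paired analysis was possible because each group holds 1 array and no second replicate number. What signal over background limits is the dim double-knockout CD45-EpCAM+ array, on which Ivl and Tgm1 have at most a bound.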
